A study of Homo sapiens with 10 samples.

Results

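SKBR3 cells carried 340 genomic clusters of H3K27ac peaks that were among the largest of their kind in every library of the line. Peaks confined to the surroundings of a gene start were left out, but broader peaks that ran over a promoter were kept whole. The clusters were chosen by their measured peak cover in 4 SKBR3 peak lists. In each list, any peak contained in the 2.5 kb on either side of a gene start (transcription start site, TSS) was dropped, and the remaining distal peaks were stitched across gaps of up to 12.5 kb. The stitched clusters were then ranked by cover, the number of bases under a peak. The 500 largest of each list merged into 664 clusters, and 340 of these were overlapped by 5 kb or more by the top 500 of all 4 lists. For scale, the 4 lists held 25079 merged distal clusters in all, and 13074 of these had a distal peak in every list.

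The H3K27ac ChIP-seq libraries came from cultures of 2 established HER2 lines of breast cancer, SKBR3 and MDA-MB-453. Some cultures were given TWEAK, a cytokine of the TNF superfamily that signals through the Fn14 receptor. All cultures were starved of serum for 8 h. The treated cultures received TWEAK at 10 ng/ml for 48 h, with fresh ligand at 24 h, and the other cultures received none. Each line had 2 untreated and 2 TWEAK libraries, whose replicates the study's methods describe as biological, and 1 input sample per line without a peak list used here.

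H3K27ac, acetylation of lysine 27 on histone H3, marks active promoters and enhancers. Long clusters of acetylated enhancers, often called super-enhancers, tend to lie at genes that define a cell's identity and at oncogenes in tumour cells. In luminal and HER2 breast cancer such genes include keratins, tight junction genes and epithelial transcription factors. The clusters described here were ranked by covered bases and not by read signal, so they are not super-enhancer calls.

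The line labels were compared with TSS peaks of marker genes. ERBB2, which encodes HER2, the epithelial genes EPCAM, KRT8 and KRT18, and the luminal factors GATA3 and FOXA1 had a peak within 1 kb of a TSS in all 4 lists of each line. The leukocyte gene PTPRC and the endothelial gene PECAM1 had none in any list. The mesenchymal gene VIM had one in 3 SKBR3 and 4 MDA-MB-453 lists, and the E-cadherin gene CDH1 in 0 SKBR3 and 4 MDA-MB-453 lists. The SKBR3 lists held between 43684 and 51687 peaks and the MDA-MB-453 lists between 36148 and 37813. Depth in reads is unknown, because no read counts were used.

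The sequence under these clusters is illustrated by 200 bases at the midpoint of the longest interval shared by all 4 SKBR3 lists, for 2 of the largest clusters by mean SKBR3 cover. Each is given for hg38, plus strand, 5′ to 3′, and capitals mark matches on either strand to one of the 7 motifs described further on. The RAI1 window, chr17:17824357-17824556, lies in an intron of SREBF1 and holds 2 ETS matches. The ARHGAP35 window, chr19:46903682-46903881, lies in an intron of ARHGAP35 and holds 2 ETS matches and 1 GATA match. No match stood in the windows of ZMIZ1 (chr10:79263062-79263261) and ZNF217 (chr20:53588577-53588776), which are of like size. The RAI1, ZMIZ1 and ZNF217 windows were under a peak in all 4 MDA-MB-453 lists, and the ARHGAP35 window in 0.
RAI1: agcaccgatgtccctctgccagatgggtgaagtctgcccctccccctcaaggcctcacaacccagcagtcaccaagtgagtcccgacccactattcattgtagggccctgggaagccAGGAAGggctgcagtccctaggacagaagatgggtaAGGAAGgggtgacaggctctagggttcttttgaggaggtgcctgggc
ARHGAP35: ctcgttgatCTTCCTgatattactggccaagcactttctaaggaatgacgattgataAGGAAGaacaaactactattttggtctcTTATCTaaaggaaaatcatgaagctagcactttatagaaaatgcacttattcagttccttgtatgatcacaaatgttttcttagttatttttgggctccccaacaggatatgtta

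The 340 clusters spanned between 33.8 and 320.0 kb, with a median of 86.8 kb and a sum of 32.4 Mb. A median of 55.2% of the span was under a peak in SKBR3. Mean cover over the 4 SKBR3 libraries ranged from 26.4 to 175 kb, with a median of 46.3 kb. The median coefficient of variation among the 4 SKBR3 libraries was 9.81%. A cluster held a median of 9 peaks per SKBR3 list and at most 41. Clusters are named here for the protein-coding gene whose body holds more of their SKBR3 cover than that of any other gene, or, in 18 cases without such a gene, for the nearest protein-coding TSS. The naming gene held over 50% of the cover in 210 clusters and a median of 69.1%, and the lowest share was 2.87%. A name therefore marks a locus, and every cover value is that of the whole cluster. Where genes of functional lists are treated, a cluster may be called by a listed gene whose TSS it holds, whatever its naming gene. Examples with a low share are ID3 with 3.35%, NFKBIA with 6.93%, ELF3 with 9.93%, XBP1 with 16.1%, ZNF217 with 16.7% and ERBB2 with 31.2%.

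Many of these clusters were built from very broad peaks, as called in the lists. The lists have the layout of broad peak calls and the calling options are not given in the sources used here, so widths hold for those unknown options. Peaks of 20 kb or wider numbered 225, 165, 209 and 175 among all distal peaks of SKBR3 untreated replicates 1 and 2 and TWEAK replicates 1 and 2. Of these, 187, 144, 178 and 150 lay in the clusters. The median width of a peak in the clusters was between 2.34 and 2.55 kb in SKBR3, and that of the other distal peaks was between 1.18 and 1.26 kb. The authors' fold enrichment, weighted by width, was also higher in the clusters than in the other distal peaks of the same list. It was 8.74 against 6.53, 11.9 against 8.10, 10.9 against 7.87 and 10.6 against 7.49 in the same order of libraries. The same held in MDA-MB-453, with 15.2 against 10.4 and 14.4 against 9.94 untreated and 13.7 against 9.68 and 13.3 against 9.39 with TWEAK. Fold enrichment at the clusters was thus higher in every MDA-MB-453 list than in any SKBR3 list, while cover was lower. The clusters held between 8.39% and 10.5% of the distal peaks of an SKBR3 list and between 19.4% and 23.6% of its distal cover.

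The median cover of a cluster was 49.0 and 43.2 kb in SKBR3 untreated replicates 1 and 2, and 47.3 and 44.6 kb in the TWEAK replicates. The MDA-MB-453 medians were 14.8 and 15.1 kb untreated and 14.8 and 14.5 kb with TWEAK. The lowest cover in any SKBR3 list was 23.5 kb, and the number of clusters without any distal peak was 8, 7, 6 and 7 in the 4 MDA-MB-453 lists. SKBR3 is high here by the choice of the clusters, so the difference between the lines is a description.

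**Figure D1:**
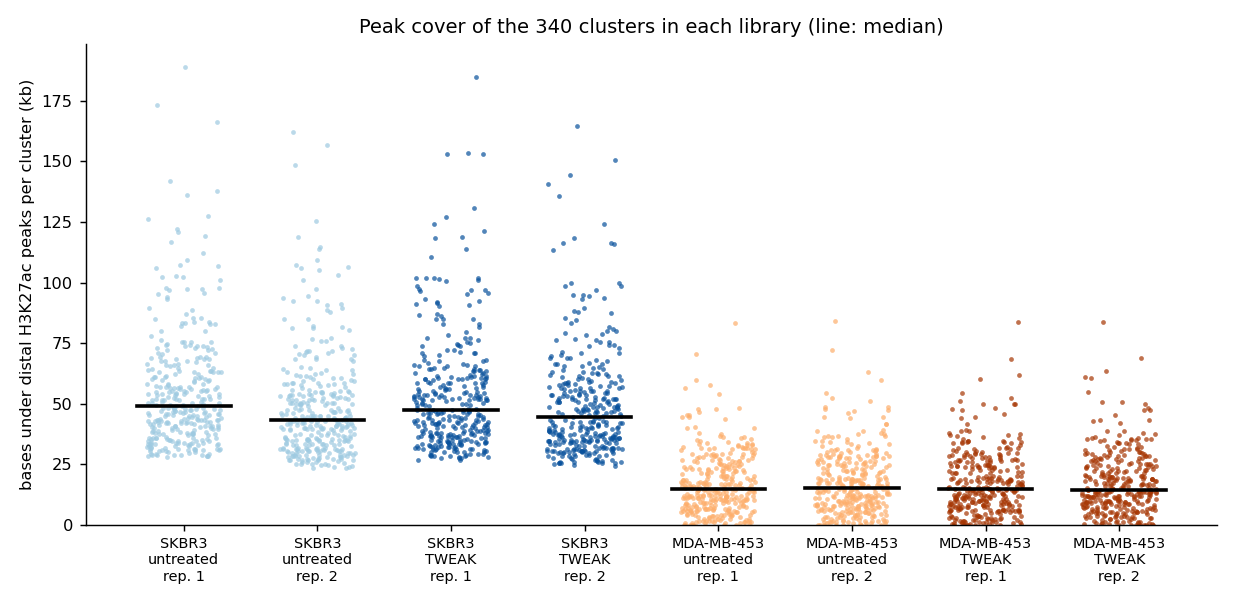
Bases under distal H3K27ac peaks (kb, vertical axis) in each of the 340 clusters (points) for the 8 libraries, with the median as a black line. SKBR3 medians lie between 43.2 and 49.0 kb and MDA-MB-453 medians between 14.5 and 15.1 kb, and points at 0 occur only in MDA-MB-453.

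Within SKBR3, replicate 1 was above replicate 2 at most clusters in both conditions. Cover was higher in untreated replicate 1 than in untreated replicate 2 for 300 clusters, by a median of 6.36 kb, and in TWEAK replicate 1 than in TWEAK replicate 2 for 254. The median absolute difference between replicates was 6.45 kb untreated and 5.32 kb with TWEAK. The median absolute difference between the means of the 2 conditions was 2.92 kb, a difference of means over 2 libraries each, in which a replicate gap common to both conditions cancels. In MDA-MB-453 these medians were 0.850, 0.907 and 0.725 kb.

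Each SKBR3 library was also read at clusters chosen by the other 3 libraries alone. The 365 clusters chosen without untreated replicate 1 had a median of 45.7 kb in that library, and 343 of them were in its top 500. For untreated replicate 2 the values were 41.8 kb and 341 of 366, for TWEAK replicate 1 they were 46.1 kb and 340 of 347, and for TWEAK replicate 2 they were 40.5 kb and 341 of 373. The left-out library had a median of between 90.7% and 106% of the cover in the 3 that chose. The lowest cover that a left-out library showed at any such cluster was 14.5 kb.

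The limit of the choice cut through a continuum. The clusters just inside were LMNB2, ranked 500th in TWEAK replicate 2 with 24.3 kb, EPB41L1, ranked 498th there with 24.4 kb, and ZSWIM4, ranked 494th in untreated replicate 2 with 24.7 kb. Just outside were SYT15B, ranked 501st in untreated replicate 1 with 26.7 kb, FBP1, ranked 501st in TWEAK replicate 2 with 24.3 kb, and RAP1GAP, ranked 502nd there with 24.3 kb.

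The clusters were spread unevenly over the genome. Chromosome 1 held 45, chromosome 17 held 38, chromosome 19 held 30 and chromosome 11 held 26, while chromosomes 13 and 18 held 2 each and X held 0. Per 100 Mb of chromosome there were 51.2 on chromosome 19, 45.6 on 17, 41.3 on 22, 29.5 on 20 and 18.1 on 1. Set against the SKBR3 distal clusters with a peak in every list, they made up 8.05% on chromosome 22, 7.16% on 19, 6.88% on 17 and 5.37% on 20. The same share was 0.531% on chromosome 4 and 0.580% on 13.

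Most of the covered bases were intronic. Introns of protein-coding genes held between 65.4% and 66.2% of the cover of the clusters in the SKBR3 lists, and between 56.0% and 58.6% of the other distal cover. Exons held between 6.19% and 6.64% of the cover of the clusters. A protein-coding TSS lay inside 297 of the 340 clusters, for 666 genes in all, and 43 clusters held none. Of the 647 of these genes with a named symbol, 618 (95.5%) had a TSS peak in all 4 SKBR3 lists and 566 (87.5%) in all 4 MDA-MB-453 lists. Over all 19360 named protein-coding genes the shares were 53.5% and 56.3%. The clusters were chosen for SKBR3 cover, and a broad peak that runs over a TSS counts as a TSS peak. The choice therefore favours the SKBR3 share.

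The largest cluster lay in SEPTIN9, a septin cytoskeleton gene, at chr17:77246969-77503248. Its cover was 189 and 162 kb in untreated SKBR3 and 184.9 and 164.6 kb with TWEAK. MDA-MB-453 had 18.5 and 26.4 kb untreated and 22.7 and 18.6 kb with TWEAK, or 12.3% of the SKBR3 mean. The widest SKBR3 peak in it was 55.8 kb, and the widest MDA-MB-453 peak was 9.69 kb.

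The second cluster, at chr17:17672663-17992702, ran across RAI1 and SREBF1, which encodes a master regulator of lipid synthesis. It measured 166, 157, 153 and 151 kb in SKBR3, in the order untreated replicates 1 and 2, then TWEAK replicates 1 and 2, which is kept from here on. In MDA-MB-453 it measured 83.4, 84.3, 83.8 and 83.7 kb, which is 53.5% of the SKBR3 mean and the highest mean MDA-MB-453 cover of any of the 340 clusters.

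ZMIZ1, a transcriptional coregulator of the androgen receptor among others, had 173, 149, 153 and 141 kb in SKBR3 and 47.8, 52.3, 51.1 and 50.003 kb in MDA-MB-453. ZNF217, a zinc finger oncogene often amplified in breast cancer, had 138, 119, 153 and 144 kb in SKBR3 and 47.6, 48.6, 49.7 and 50.7 kb in MDA-MB-453. ARHGAP35, which encodes a GTPase-activating protein, had 142, 109, 127 and 124 kb in SKBR3 and 33.7, 36.6, 38.6 and 35.1 kb in MDA-MB-453. MDA-MB-453 cover was therefore 32.7%, 35.4% and 28.7% of the SKBR3 mean, near the median of all the clusters.

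GSE1 had 127, 125, 119 and 118 kb in SKBR3 and between 34.1 and 39.3 kb in MDA-MB-453. The cluster named for DNAJC17 also held the TSS of SPINT1, an inhibitor of epithelial serine proteases, and of RHOV. It had 122, 115, 121 and 116 kb in SKBR3 and between 52.2 and 61.1 kb in MDA-MB-453. These clusters stood at 30.4% and 47.3% of their SKBR3 mean in the other line.

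GTF2IRD1, a gene of the TFII-I family, had 136, 107, 131 and 94.7 kb in SKBR3 and between 9.91 and 11.3 kb in MDA-MB-453. DLG5, a membrane scaffold gene, had 126, 103, 118 and 98.6 kb and between 25.5 and 33.5 kb. MDA-MB-453 cover was 8.93% and 27.1% of the SKBR3 mean at these.

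AOPEP had the lowest share of the 12 largest clusters. This cluster, within the body of AOPEP at chr9:94991554-95127533, had 109, 106, 96.8 and 113 kb in SKBR3 and 1.59, 1.56, 2.04 and 0.998 kb in MDA-MB-453. MDA-MB-453 thus had 1.45% of the SKBR3 cover, in 1 peak at the edge of the cluster. The nearest protein-coding TSS was 122 kb away.

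**Figure D2:**
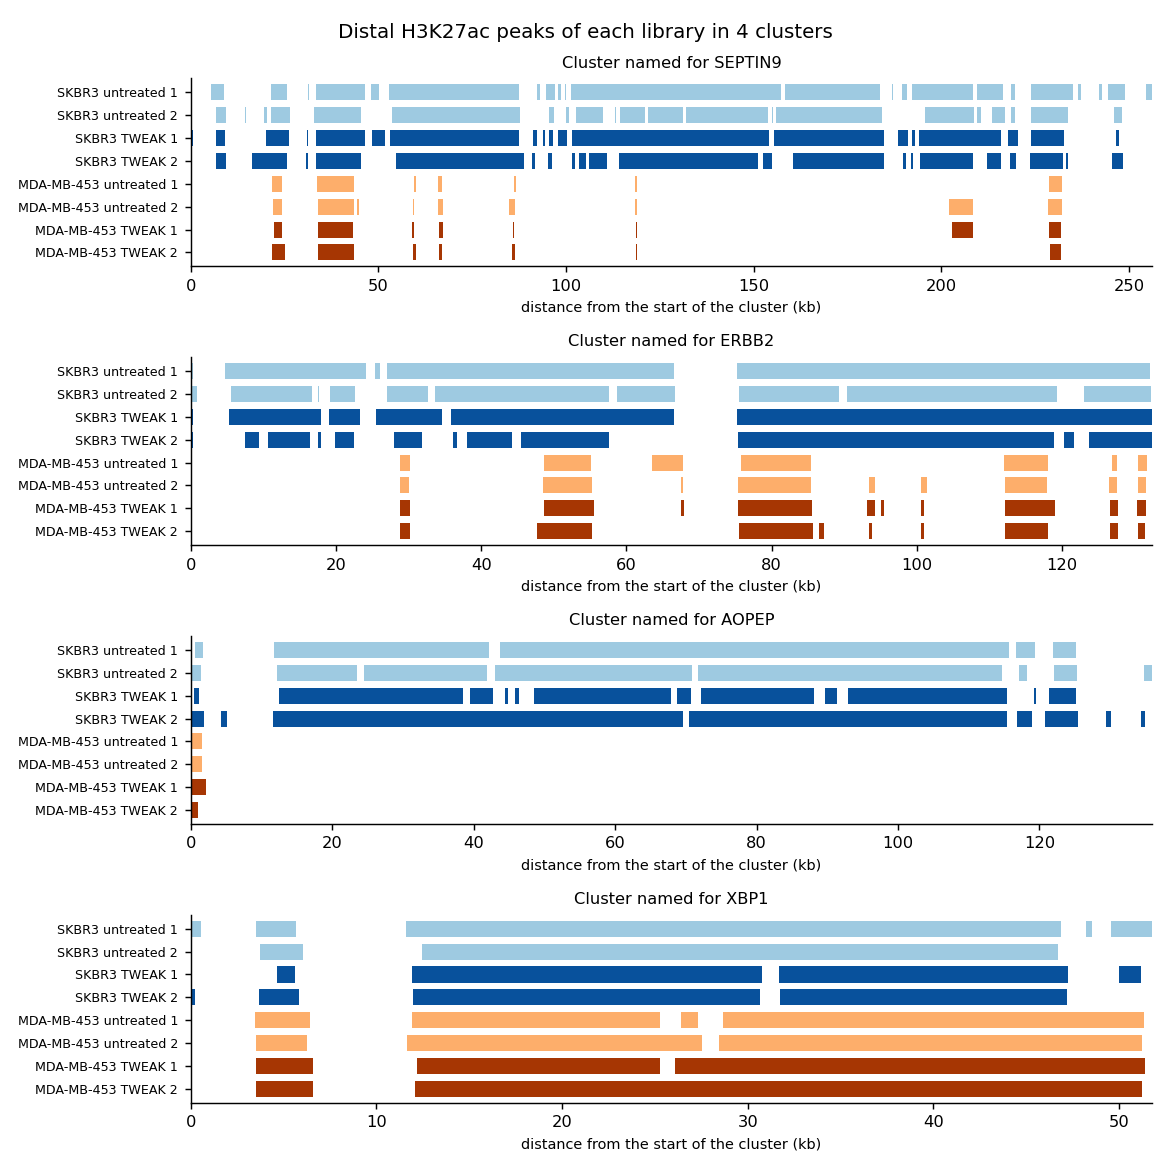
Distal H3K27ac peaks (bars) of the 8 libraries in the clusters named for SEPTIN9, ERBB2, AOPEP and XBP1, by distance from the start of the cluster (kb). SKBR3 peaks merge into broad blocks in SEPTIN9, ERBB2 and AOPEP where MDA-MB-453 has short separate peaks or, in AOPEP, 1 peak at the edge, and the lines have like cover in XBP1.

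Across all 340 clusters, MDA-MB-453 cover was a median of 32.1% of the SKBR3 cover, with quartiles of 16.4% and 46.2% and a range from 0 to 119%. Summed over the clusters it was 33.3%, while over all distal peaks it was 64.2%. The latter also counts MDA-MB-453 peaks outside SKBR3 clusters, and choosing clusters by SKBR3 cover favours such a gap by itself. The like measure per cluster, over the other 12734 SKBR3 distal clusters with a peak in every list, had a median of 24.4%. Its quartiles were 0 and 81.1%. The 324 merged clusters that were in the top 500 of some but not all lists had a median of 30.3% with quartiles of 14.2% and 56.4%. In the reverse direction, the same rule gave 406 clusters in MDA-MB-453, where SKBR3 cover was a median of 83.3% of the MDA-MB-453 cover, with quartiles of 36.9% and 121%.

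Position was compared as well as amount. A median of 29.2% of the SKBR3 cover of a cluster was also under an MDA-MB-453 peak (quartiles 15.7% and 44.2%). Over the other 12734 SKBR3 distal clusters with a peak in every list, this median was 19.5%, with quartiles of 0 and 64.3%. The median for the 406 MDA-MB-453 clusters, read against SKBR3 peaks, was 68.5%. A total of 122 of the 340 SKBR3 clusters (35.9%) shared 5 kb or more with the MDA-MB-453 clusters. These were matched by 130 of the 406 MDA-MB-453 clusters (32.0%). The overlap with the MDA-MB-453 clusters was not counted for other SKBR3 distal clusters, so whether 35.9% is high or low cannot be told. The part of cluster length in it was not tested.

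Complete absence from MDA-MB-453 was rare. In 37 of 340 clusters (10.9%) every MDA-MB-453 list had under 10% of the SKBR3 mean, against 38.3% of the 13074 SKBR3 distal clusters with a peak in every list. No MDA-MB-453 distal peak was found at 6 clusters (1.76%), against 35.9%. At the other end, 67 clusters (19.7%) had over 50% in every MDA-MB-453 list, against 32.6%. The highest MDA-MB-453 list was below the lowest SKBR3 list in 329 clusters (96.8%), against 67.9%, a direction that the choice of the clusters favours. The background clusters were mostly smaller, and the part of size in these shares was not tested.

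The 6 clusters without an MDA-MB-453 distal peak included 1 across STAT3, a cytokine signalling factor, at chr17:42314144-42403637. It had 47.1, 35.1, 53.6 and 49.8 kb in SKBR3. URB1, a ribosome biogenesis gene, had 43.6, 33.0, 43.0 and 41.1 kb, and SPECC1 had 30.7, 37.2, 36.3 and 39.9 kb. SEMA7A, TAC4 and ANKRD16 had between 28.2 and 36.0 kb. When peaks near a TSS were counted, 1 peak of between 2.09 and 2.27 kb remained in each MDA-MB-453 list at STAT3, 1 of between 2.18 and 2.44 kb at URB1 and 1 of between 3.12 and 3.29 kb at TAC4. SPECC1, SEMA7A and ANKRD16 had no MDA-MB-453 peak of any kind.

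Promoter peaks of genes inside these clusters were examined next. The 37 clusters with under 10% held the TSS of 41 named genes. All had a TSS peak in every SKBR3 list, which the choice of the clusters favours. Of these, 33 had a TSS peak in every MDA-MB-453 list and 6 in none. The 6 were AHRR, the repressor of the aryl hydrocarbon receptor, FBLN2, KCNN4, SPNS2, SPSB1 and STEAP3, named after their values were seen. In the 67 clusters with over 50%, 118 of 127 genes had a TSS peak in every MDA-MB-453 list and 8 in none.

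At the shared end, the cluster at POU2F3 had 28.8, 27.2, 32.1 and 29.6 kb in SKBR3 and 37.5, 32.7, 34.3 and 35.5 kb in MDA-MB-453. Every MDA-MB-453 library was above every SKBR3 library there. The same held at XBP1, a secretory stress and luminal factor at chr22:28778900-28830699, except for SKBR3 untreated replicate 1. It had 40.4, 36.6, 36.6 and 36.5 kb in SKBR3 and 39.9, 41.5, 41.5 and 42.2 kb in MDA-MB-453. The cluster nearest to PPARA, 32.9 kb from its TSS, had no SKBR3 cover in the body of a named protein-coding gene. Non-coding genes were not considered in the naming. This cluster had 50.3, 41.7, 41.0 and 30.5 kb in SKBR3 and 45.4, 48.6, 49.9 and 50.5 kb in MDA-MB-453.

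A block of replication-dependent histone genes around H4C15 had between 30.8 and 31.9 kb in SKBR3 and between 33.5 and 34.1 kb in MDA-MB-453. Its gene copies are nearly identical, so reads may be placed uncertainly. The NDUFAF6 cluster had between 28.7 and 31.3 kb in SKBR3 and between 29.4 and 31.6 kb in MDA-MB-453. ABCC3, a multidrug resistance transporter, had between 31.2 and 37.2 kb and between 31.3 and 35.7 kb. The ranges of the lines overlapped in both of these.

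**Figure D3:**
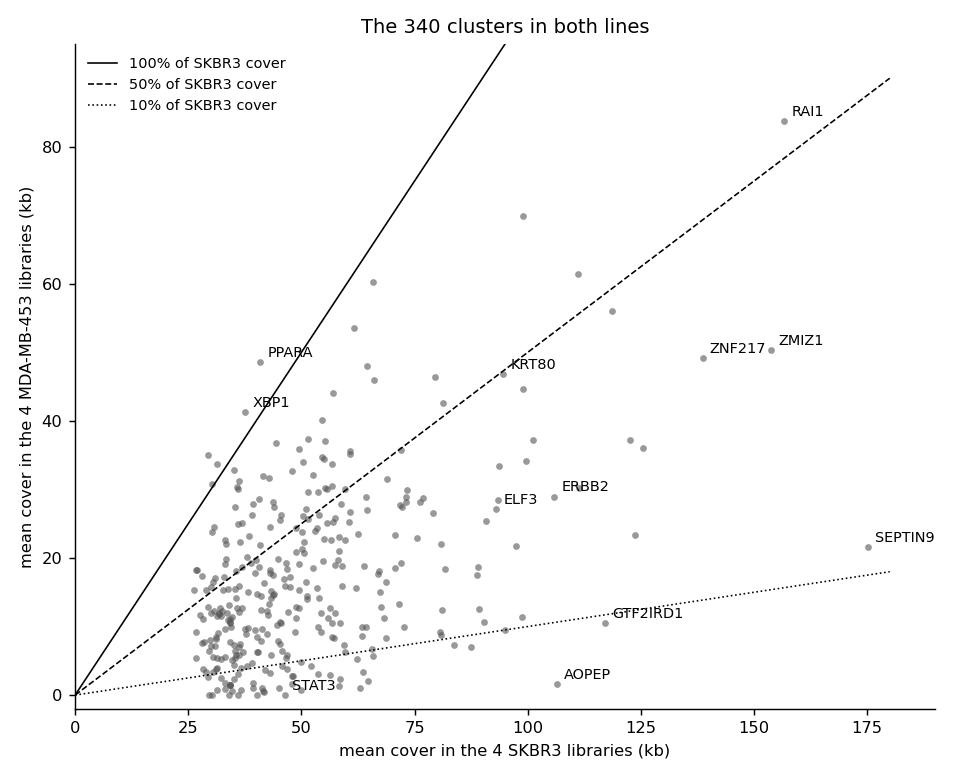
Mean cover of each of the 340 clusters in the 4 SKBR3 libraries (horizontal, kb) and the 4 MDA-MB-453 libraries (vertical, kb), with lines at 100%, 50% and 10% of SKBR3 cover. Most points lie between the lines at 10% and 50%, RAI1 has the highest MDA-MB-453 cover, and AOPEP lies near 0 at a high SKBR3 cover.

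Genes of 14 functional lists were then located. Over all 19360 named protein-coding genes, 3.34% had a TSS inside a cluster and 6.16% within 50 kb of one. Keratin genes had the highest shares of the lists, with 6 of 15 inside and 9 within 50 kb. Of 21 epithelial ETS, KLF and grainyhead factors, 5 were inside. Of 36 junction and adhesion genes, 8 were inside and 9 within 50 kb. Of 16 luminal factors, 3 were inside. None of 17 mesenchymal and stromal or of 12 immune and endothelial genes lay inside or within 50 kb. The lists were chosen with earlier results of these data known, and their genes are partly neighbours in the genome, so these counts are descriptions.

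The keratins, intermediate filaments of epithelial cells, fell in 3 clusters. That of KRT80 and KRT7, at chr12:52115853-52257736, had 97.3, 89.6, 96.8 and 94.5 kb in SKBR3 and 45.4, 46.8, 48.0 and 47.3 kb in MDA-MB-453. That of KRT8 and KRT18, the luminal pair, had 57.4, 50.05, 57.2 and 55.3 kb and between 22.1 and 24.0 kb. That of KRT15 and KRT19 had between 40.4 and 41.4 kb and between 21.3 and 22.99 kb. MDA-MB-453 stood at 49.5%, 41.4% and 53.8%, all above the median of the 340 clusters.

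Among transcription factors, ELF3, an epithelial ETS factor, had 101, 91.3, 95.2 and 84.7 kb in SKBR3 and between 24.7 and 29.4 kb in MDA-MB-453. The HLH inhibitor ID3 had between 45.3 and 49.5 kb and between 10.8 and 13.3 kb. GRHL2, a grainyhead factor of epithelial junction genes, had between 34.8 and 51.3 kb and between 26.4 and 29.6 kb. RARA, a retinoic acid receptor gene near ERBB2, had between 52.5 and 61.0 kb and between 18.6 and 19.4 kb. SPDEF, an ETS factor of secretory cells, had between 28.3 and 33.0 kb and between 24.3 and 25.1 kb. As shares of SKBR3 cover these were 29.1%, 25.7%, 64.5%, 33.1% and 80.2%, so the factors did not share a level.

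The junction genes CLDN3 and CLDN4, which encode claudins of tight junctions, shared a cluster with 86.9, 63.8, 97.5 and 70.2 kb in SKBR3 and between 43.1 and 48.0 kb in MDA-MB-453. The integrin gene ITGB5 had between 61.5 and 79.9 kb and between 17.2 and 19.0 kb. The tetraspanin gene CD9 had between 62.7 and 66.7 kb and between 46.4 and 49.9 kb, 74.5% of the SKBR3 mean.

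Of 27 ERBB receptors, ligands and feedback genes, 2 were inside and 3 within 50 kb. ERBB2, amplified in SKBR3, and GRB7, an adaptor that binds HER2, shared the cluster at chr17:39623195-39755653. It had 117, 105, 114 and 87.4 kb in SKBR3 and 29.6, 27.9, 29.8 and 28.6 kb in MDA-MB-453, or 27.4%. The cluster held 5, 10, 6 and 12 peaks in the SKBR3 lists, with widest peaks of 56.9, 28.9, 57.1 and 43.5 kb. MDA-MB-453 had between 7 and 10 peaks there, the widest of 10.2 kb. Copy number was not measured here in either line, and its part in this cover was not tested.

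The pathway of TWEAK itself was represented. Of 28 NF-kB and TWEAK signalling genes, 4 were inside a cluster and 5 within 50 kb, among them TNFRSF12A, which encodes the receptor Fn14. TRAF2, an adaptor of TNF receptors, had 89.4, 53.1, 102 and 78.2 kb in SKBR3 and 5.57, 14.3, 8.35 and 8.502 kb in MDA-MB-453. BCL3, a nuclear IkB protein, had between 53.8 and 62.9 kb and between 16.1 and 21.2 kb. NFKBIA, the IkB alpha inhibitor, had between 46.4 and 58.5 kb and between 21.2 and 26.4 kb.

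Of 35 NF-kB target genes, 3 were inside and 4 within 50 kb. The cluster beside IER3, an immediate early gene, had between 58.0 and 62.9 kb in SKBR3 and between 34.2 and 36.4 kb in MDA-MB-453. That of PLAU, the urokinase gene, had between 48.3 and 63.4 kb and between 10.5 and 13.5 kb. That of BCL2L1, which encodes the survival protein BCL-XL, had between 42.2 and 52.0 kb and between 30.8 and 34.2 kb.

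Of 21 AP-1 and small MAF genes, 3 were inside and 4 within 50 kb, and the 3 inside were the small MAF partners of AP-1 and CNC factors. MAFF lay in a cluster of 107, 80.4, 102 and 74.0 kb in SKBR3 and between 21.4 and 27.5 kb in MDA-MB-453. MAFG lay in one of between 60.4 and 80.0 kb and between 6.52 and 12.7 kb. MAFK lay in one of between 48.0 and 56.5 kb and between 17.9 and 19.4 kb.

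Of 22 proliferation and survival genes, 1 was inside and 3 within 50 kb. The cluster downstream of MYC, 49.3 kb from its TSS, had between 53.1 and 63.4 kb in SKBR3 and between 42.8 and 45.6 kb in MDA-MB-453, 77.5% of the SKBR3 mean. Of 25 lipid and sterol synthesis genes, 3 were inside, all of them central to the pathway. FASN, the fatty acid synthase gene, lay in a cluster named for CCDC57 by the rule above. This cluster had between 40.9 and 54.7 kb in SKBR3 and between 17.2 and 21.4 kb in MDA-MB-453. SREBF2, the regulator of cholesterol synthesis, had between 25.6 and 33.5 kb and between 11.6 and 14.6 kb, and SREBF1 lay in the second largest cluster.

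Of 22 apocrine and androgen-response genes, PMEPA1 and SPDEF were inside. Of 10 NAD synthesis genes, 1 was inside, NAPRT, the nicotinic acid branch enzyme. Its cluster, named for EEF1D by the rule above, had 43.8, 32.7, 37.4 and 34.9 kb in SKBR3 and between 6.12 and 6.31 kb in MDA-MB-453. The TSS of NAMPT, the nicotinamide branch enzyme, had a peak in all lists of both lines and lay neither inside a cluster nor within 50 kb of one.

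**Figure D4:**
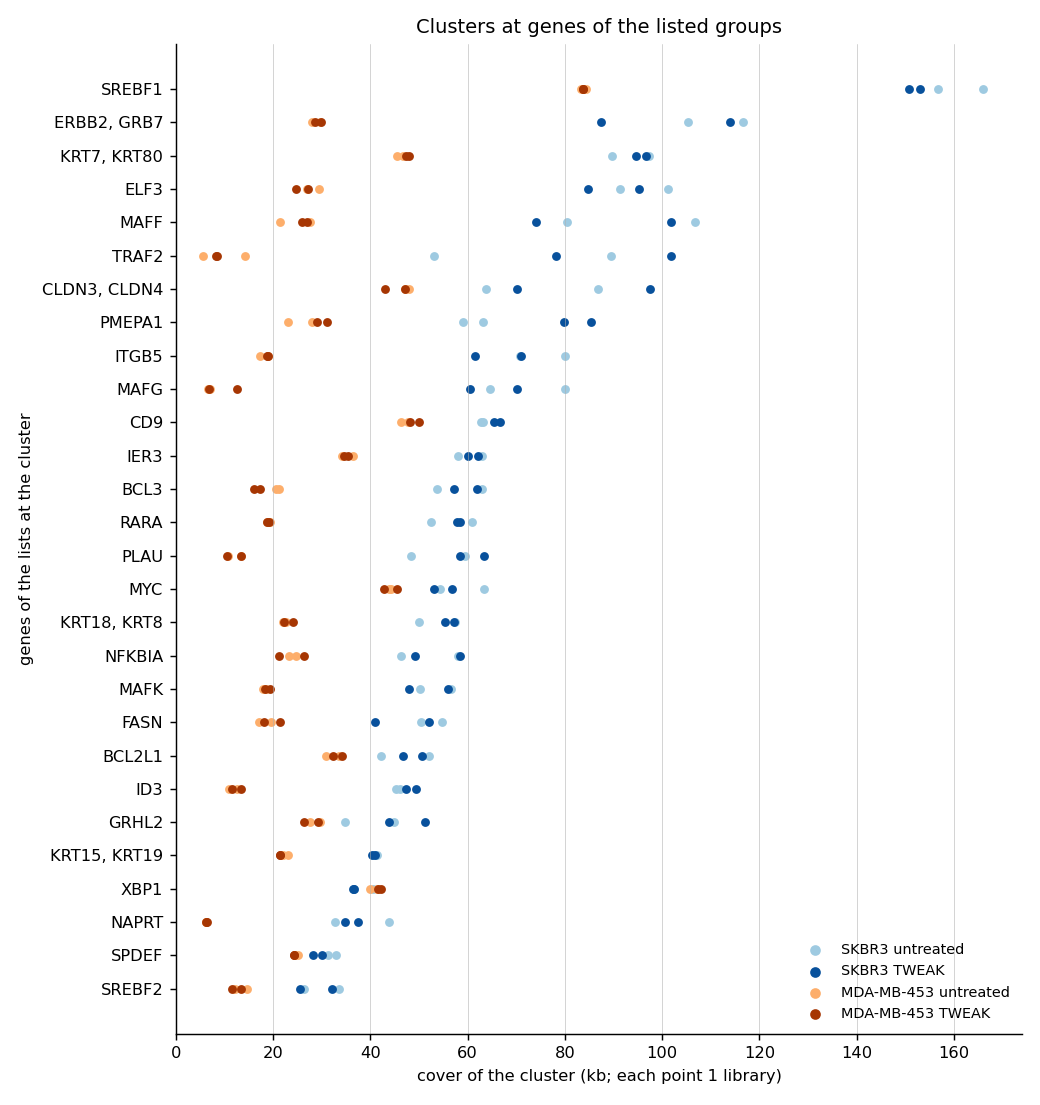
Cover (kb, each point 1 library) of the clusters at genes of the 14 lists, ordered by mean SKBR3 cover. SKBR3 points lie to the right of MDA-MB-453 points at every cluster except that of XBP1, and the MDA-MB-453 points of TRAF2 lie between 5.57 and 14.3 kb.

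The question of the treatment was whether the clusters changed with TWEAK. In SKBR3 the summed cover was 18.9 and 16.6 Mb untreated and 18.4 and 17.1 Mb with TWEAK. The means were 17.7 ± 1.67 and 17.7 ± 0.923 Mb (SD, n = 2), and the values chose the clusters, so no test was made. As a share of all distal cover, the clusters took 22.9% ± 1.01 untreated and 21.1% ± 2.48 with TWEAK (SD, n = 2). The lowest share, 19.4%, was in TWEAK replicate 2, the longest list.

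MDA-MB-453 had no part in the choice and was tested. Summed cover was 5.82 and 5.92 Mb untreated and 5.91 and 5.95 Mb with TWEAK, and the conditions overlapped. The mean was 5.87 ± 0.0698 Mb untreated and 5.93 ± 0.0292 Mb with TWEAK (SD, n = 2). The difference of 0.0626 Mb gave p = 0.667 in an exact two-sided permutation test, whose smallest p with 2 libraries against 2 is 0.333, so that no difference could have passed 0.05. As a share of distal cover the clusters took 11.3% ± 0.0719 untreated and 11.4% ± 0.198 with TWEAK (exact permutation p = 0.667).

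Cover was higher in both TWEAK lists than in both untreated lists at 42 of 340 clusters in SKBR3 (12.4%), against 24.6% of the 13074 clusters with a peak in every list. It was lower in both at 33 clusters (9.71%), against 13.1%. The clusters had to be among the largest in every SKBR3 list, so the choice itself favours like cover in both conditions. The SKBR3 shares are therefore a description. In MDA-MB-453, 331 clusters had cover in every list. Of these, 73 (22.1%) were higher in both TWEAK lists, against 15.2% of 9316 clusters, and 53 (16.0%) were lower in both, against 15% of them. At 22 of the 331 clusters (6.65%) the conditions overlapped in neither line and differed in the same direction, against 6.85% of 7185 clusters with cover in all 8 lists. At 12 (3.63%) they overlapped in neither line and differed in opposite directions, against 5.61%.

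The largest gain of mean cover in SKBR3 was at PMEPA1, a target of androgen and TGF-beta signalling, at chr20:57654751-57820475. It had 59.1 and 63.2 kb untreated and 79.7 and 85.5 kb with TWEAK, a difference of 21.5 kb without overlap. MDA-MB-453 had 22.99 and 27.95 kb untreated and 29.0 and 31.0 kb with TWEAK there, also without overlap. ZNF217 was next, with 138 and 119 kb against 153 and 144 kb in SKBR3, and then TRAF2, with 89.4 and 53.1 kb against 102 and 78.2 kb. The TRAF2 values overlapped between conditions, and those of ZNF217 did not.

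The most negative differences of the mean (TWEAK minus untreated) in SKBR3 were -17.9 kb at ITPK1, an inositol phosphate kinase gene, -13.9 kb at ZMIZ1 and -12.6 kb at ASPSCR1. ITPK1 had 119 and 101 kb untreated and 101 and 83.4 kb with TWEAK. ASPSCR1 had 53.3 and 50.1 kb untreated and 47.2 and 31.2 kb with TWEAK. The conditions did not overlap at ITPK1 and ASPSCR1 and did at ZMIZ1, and TWEAK replicate 2 had the lowest value at all 3.

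In MDA-MB-453 the largest positive differences were smaller. The choline transporter gene SLC44A2 had 9.05 and 5.05 kb untreated and 11.7 and 13.6 kb with TWEAK. The actin regulator EPS8L2 had 0 and 0 kb untreated and 5.70 and 5.24 kb with TWEAK. The widest TWEAK peaks there, 5.21 and 5.24 kb, were close to the widest that the TSS filter can drop. Whether the untreated lists held a dropped peak near a TSS there was not checked. PISD, which makes phosphatidylethanolamine in mitochondria, had 8.74 and 8.95 kb untreated and 13.5 and 13.6 kb with TWEAK, and in SKBR3 63.6 and 60.5 kb against 72.2 and 76.4 kb. The conditions did not overlap at any of these, nor at PISD in SKBR3.

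The most negative difference in MDA-MB-453 was at TRIB3, a stress-induced pseudokinase gene, with 35.5 and 36.4 kb untreated and 28.1 and 27.7 kb with TWEAK. SLC16A3, a lactate exporter gene, had 20.2 and 21.5 kb against 14.9 and 14.2 kb, and KDM2A, a histone demethylase gene, had 17.3 and 19.3 kb against 14.8 and 12.5 kb. The conditions did not overlap at these 3 in MDA-MB-453, and they did in SKBR3. These clusters were picked as the extremes of 340, so the gaps carry no test. At KDM2A, a region of 4.08 kb was present in both untreated MDA-MB-453 distal lists and neither TWEAK distal list. Whether the TWEAK lists held a dropped peak near a TSS there was not checked.

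**Figure D5:**
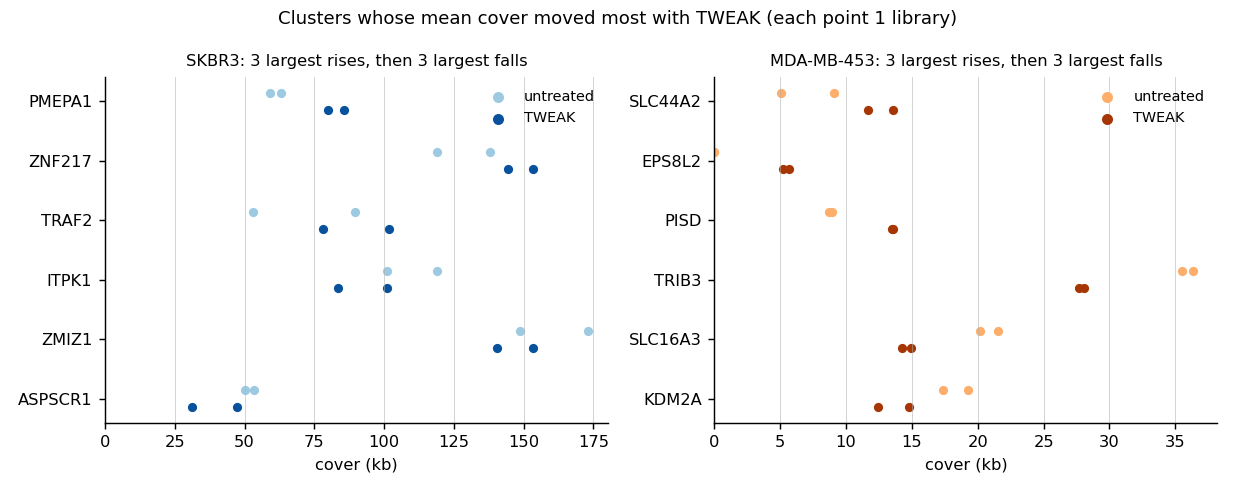
Cover (kb, each point 1 library) of the 3 clusters with the most positive and the 3 with the most negative difference of mean cover, TWEAK minus untreated, in SKBR3 (left) and MDA-MB-453 (right). Untreated and TWEAK points do not overlap at PMEPA1, ZNF217, ITPK1, ASPSCR1 or the 6 MDA-MB-453 clusters, and they overlap at TRAF2 and ZMIZ1.

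Peaks inside the clusters were also compared one by one between conditions. The clusters held 3741 merged distal SKBR3 regions, of which 54.3% were in all 4 lists, against 43.2% of all 49920. A total of 85 (2.27%) were present in both TWEAK lists and neither untreated list, against 5.29% of all distal regions, and 47 (1.26%) showed the reverse, against 1.44%. In MDA-MB-453 the clusters held 1928 regions, of which 28 (1.45%) were gained, against 1.63%, and 14 (0.726%) were lost, against 1.67%. These counts depend on each library: without SKBR3 untreated replicate 2, 125 regions were gained and 549 lost, and without MDA-MB-453 untreated replicate 1, 59 were gained and 82 lost. The other libraries left out gave between 244 and 362 gained and between 87 and 179 lost in SKBR3, and between 65 and 107 gained and between 39 and 54 lost in MDA-MB-453. The gained SKBR3 regions were small, with a median width of 1.22 kb and at most 5.68 kb, and fell in 64 clusters. A peak near a TSS that passes the TSS filter in only part of the lists can also count as gained or lost. Peaks in the clusters were wider than the others, and the part of width in these shares was not tested. The SKBR3 shares also come from the lists that chose the clusters, a choice that favours regions present in all 4 lists.

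Motifs were counted in the distal intervals common to all 4 SKBR3 lists, 2907 inside the clusters and 20145 outside. Both strands were searched. The letters TGANTCA stood for the AP-1 motif, which binds Fos and Jun dimers, and GGANTTTCC stood for NF-kB. For the luminal factors, AGATAA was taken as the GATA motif, the run TGTTTAC as the forkhead (FOX) motif, and GCCNNNGGC as the TFAP2 motif. For epithelial factors, AACCNGTT was taken as the grainyhead (GRHL) motif, while the motif of ETS factors was AGGAAG. Matches of different motifs were counted separately also where they overlapped. The intervals inside had a G+C content of 51.5% and 20.7 CpG per kb, and those outside had 47.8% and 17.4. AP-1 matches stood at 0.331 per kb inside and 0.428 outside. GATA matches stood at 0.408 and 0.523, FOX at 0.118 and 0.183, and GRHL at 0.0676 and 0.100. TFAP2 matches, which are rich in G and C, were denser inside, with 0.565 against 0.452 per kb. NF-kB stood at 0.0428 and 0.0518, and ETS at 1.45 and 1.43.

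In windows of 200 bases at the interval midpoints, AP-1 letters stood in 6.88% inside and 11.4% outside, GATA letters in 7.29% and 9.27%, and ETS letters in 24.66% and 24.99%. The median interval was 2.65 kb wide inside and 1.22 kb outside, and the part of width and base composition in these differences was not tested. Within the clusters, intervals with a peak in all 4 MDA-MB-453 lists and intervals with none had 0.325 and 0.343 AP-1 matches per kb, 0.0410 and 0.0475 of NF-kB, 0.421 and 0.380 of GATA, 0.120 and 0.113 of FOX, 0.566 and 0.555 of TFAP2, 0.0708 and 0.0572 of GRHL, and 1.44 and 1.47 of ETS. In the midpoint windows GRHL letters stood in 2.31% and 1.07%, FOX letters in 4.11% and 3.02%, and AP-1 letters in 6.51% and 7.04%. The intervals of these sets had median widths of 5.46 and 1.42 kb. A match is a run of letters and not a bound site.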

How the data were processed

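H3K27ac ChIP-seq peak lists of 8 libraries were analysed, 2 per line and condition. The authors aligned the reads to hg38 (Bowtie2), called peaks for each library against input (MACS2) and took out blacklisted regions (bedtools). Trimmomatic and deepTools are also named in the submitters' processing notes. Versions and calling options are not given in the sources used here. In the deposited lists each peak has a score, a ratio over background (fold enrichment) and p- and q-values as −log10. The score was not used. Width-weighted fold enrichment was described, and −log10 q served only for filters. Differences in peak calling or sequencing depth between libraries change cover directly.

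Chromosomes 1 to 22 and X were used, and 0 peaks passed a chromosome end of the hg38 reference. TSS were those of GENCODE release 44 basic transcripts. Peaks were stitched, ranked and shared as stated with Python 3.11.15 and numpy 2.4.6, and sequences were read with pysam 0.24.0. Scripts were tested on simulated peaks. The main test was an exact permutation test over 6 assignments of the MDA-MB-453 libraries. Exact sign-flip tests over numbered and crossed replicate pairs of that line were its alternatives. Values for named clusters followed a fixed rule: the 12 largest, the 6 highest and 6 lowest in MDA-MB-453 as a share of SKBR3, up to 3 per gene list, the 3 greatest rises and falls per line, and 3 on each side of the limit. Values for 2 of the 12 largest are not reported here. The members and gene lists were chosen with earlier results of these data known. Alternatives were another stitching distance, list depth, TSS filter, q-value, ranking, overlap, equal list sizes, all MDA-MB-453 peaks, the replicate number as a block and each library left out. Read-level tests such as DiffBind were not run, since reads were not used here.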

Additional observations from a re-analysis of the deposited data

Results flagged for a closer look

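At 12 of the 331 clusters with cover in all 8 lists (3.63%) the untreated and TWEAK lists did not overlap in either line and the cover differed in opposite directions in the 2 lines, against 5.61% of 7185 SKBR3 distal clusters with cover in all 8 lists. This difference between the lines was not tested. At 22 other clusters (6.65%) the lists did not overlap in either line and the direction was the same, against 6.85%. Among the 12 were 2 clusters described above. At the cluster nearest to PPARA, mean cover was 46.0 kb untreated and 35.7 kb with TWEAK in SKBR3, a difference of -10.2 kb. In MDA-MB-453 it was 47.0 and 50.2 kb, a difference of 3.16 kb. In SKBR3, a region of 6.92 kb at the start of this cluster was present in both untreated distal lists and neither TWEAK distal list. Whether the TWEAK lists held a dropped peak near a TSS there was not checked. At SLC44A2 the difference was -5.83 kb in SKBR3, whose values chose the clusters, and 5.57 kb in MDA-MB-453.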

How the results depend on the processing

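The number of clusters, 340, was 164 with the top 250 of each list and 688 with the top 1000, and between 286 and 357 under the other choices that kept all libraries. It was between 347 and 373 with each SKBR3 library left out. Of the 340, 254 were found again with stitching across 5 kb, 270 with q under 1e-05 and 251 when ranked by width times fold enrichment.

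The share of SKBR3 cover under an MDA-MB-453 peak, and MDA-MB-453 cover as a percent of SKBR3 cover, were 29.7% and 33.2% with the top 250, 30.5% and 33.3% with the top 1000, 32.8% and 33.3% with stitching across 5 kb, 34.1% and 35.9% with no peaks dropped near a TSS, 34.5% and 35.4% with q under 1e-05, 31.4% and 33.6% when ranked by width times fold enrichment, and 33.2% and 36.3% with all MDA-MB-453 peaks. With lists of equal size the first was 29.6%, and with TSS of protein-coding genes alone the second was 32.8%. With each library left out they were between 28.1% and 29.98% and between 30.6% and 32.6%.

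Clusters under 10% in every MDA-MB-453 list numbered 18 with the top 250, 95 with the top 1000, 20 with no peaks dropped near a TSS and 22 with all MDA-MB-453 peaks. Those over 50% numbered 29 and 173 with the top 250 and the top 1000, and those shared with MDA-MB-453 clusters 48 and 292. With each library left out these 3 counts were between 37 and 45, between 68 and 78, and between 123 and 132.

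With q under 1e-05, 14 SKBR3 regions were lost and 17 MDA-MB-453 regions gained. With each library left out, SKBR3 had between 125 and 362 gained and between 87 and 549 lost regions, and MDA-MB-453 between 59 and 107 gained and between 39 and 82 lost, since dropping a library drops a condition of the call.

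With the replicate number as a block, the MDA-MB-453 difference of 0.0626 Mb gave p = 0.5 in an exact sign-flip permutation test, the smallest p that 2 pairs allow. Over the clusters, the replicate 1 minus replicate 2 differences of the 2 conditions had a correlation of -0.12 in MDA-MB-453, so the crossed pairing was added after seeing the data. The sign-flip test on crossed pairs did not reach that smallest p. Of the 331 clusters with MDA-MB-453 cover in every list, cover was higher with TWEAK in both pairs at 100 (30.2%, against 21.4% of 9316) and lower at 78 (23.6%, against 21.7%) as numbered, and at 104 (31.4%, against 21.9%) and 75 (22.7%, against 21.4%) when crossed. In SKBR3 the same correlation was 0.63, a hint from the data and not the design. There cover was higher in both numbered pairs at 94 of 340 clusters (27.6%, against 38.6% of 13074) and lower at 113 (33.2%, against 23.7%). These SKBR3 shares come from the lists that chose the clusters and are a description. Among the extremes that overlapped between conditions, TRAF2 was higher in both pairs and ZMIZ1 lower in both. The difference was 0.0186 Mb with q under 1e-05 and between 0.0133 and 0.112 Mb with each library left out.

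Cover carries no measure of depth or of copy number, and read depth per library is unknown. A missing peak says only that none was called. The lines cannot be told apart from differences in enrichment between their libraries.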
